A study of Mus musculus with 6 samples.

Results

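The transcription factor p53 and 9 genes that it is known to activate were followed in the midface of mouse embryos that lack TFAP2 in the neural crest. The set was chosen by gene symbol from the deposited count table and holds Trp53, which encodes p53, its inhibitor Mdm2, the arrest genes Cdkn1a and Ccng1, the death-linked genes Bax, Bbc3, Pmaip1, Phlda3 and Trp53inp1, and the stress gene Sesn2. These 10 genes were each found once among 55401 entries, and all 10 passed the filter on low counts. RNA was sequenced from bulk frontonasal and maxillary prominences, the tissue of the future nose, midface and upper jaw, of embryos at E10.5. There were 3 mutant and 3 control libraries, from littermates on a mixed background.

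Mutants (Tfap2Δ/NCKO) carried Wnt1:CRE, a transgene that recombines in premigratory cranial neural crest, together with a null and a floxed allele of Tfap2a and likewise of Tfap2b. The crest thus lost both AP-2 factors, and the rest of the embryo kept a single working copy of each gene. Controls lacked the transgene, and any combination of Tfap2a and Tfap2b alleles was accepted among them, so a control may also have carried a null allele. Every mutant and no control had the transgene, so its own effects and those of TFAP2 loss cannot be told apart. The tissue held ectoderm, neural tissue, vessels and blood beside the crest, and in such bulk samples fewer cells of a type and less RNA per cell cannot be told apart either.

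In an unstressed cell p53 protein is made and destroyed quickly, because MDM2 marks it for degradation. DNA damage, ribosome stress or oncogene activity frees it, and it then switches on genes that stop the cell cycle, such as Cdkn1a, or that permeabilise mitochondria and kill the cell, such as Bax and Bbc3. Mdm2 is itself a target, which closes a feedback loop. Neural crest cells of the face are known to be sensitive to p53, and its activation underlies crest loss in mouse models of Treacher Collins syndrome. As p53 is controlled mainly as a protein, the RNA of its targets carries more of its activity than the RNA of Trp53 does. Changes in protein, in its modification or in a small group of cells were not measured here.

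None of the 10 genes passed the test between genotypes. A call needed an adjusted p below 0.05 and a log2 fold change, mutant over control, beyond 0.32 in either direction. In edgeR's quasi-likelihood test 0 of 10 were called, against 0.326% of the 19612 genes tested. None had an unadjusted p below 0.05, against 7.95% of genes, and DESeq2's Wald test called 0 of 10, against 1.44%. Control and mutant values failed to overlap in 0 of 10, against 13.4% of genes. With only 10 genes and shares of this size, these counts of 0 do not set the 10 apart from other genes. The log2 fold change ran from -0.08 to 0.13, with 4 genes above and 6 below 0 and a median of -0.01, beside 0.00 over all genes tested. The 95% intervals of all 10 lay between -0.33 and 0.29 on the log2 scale, that is between 0.794-fold and 1.22-fold. A change of 1.5-fold in either direction was therefore outside the interval of every gene. The p-values measure the spread among 3 embryos of each group.

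**Figure D1:**
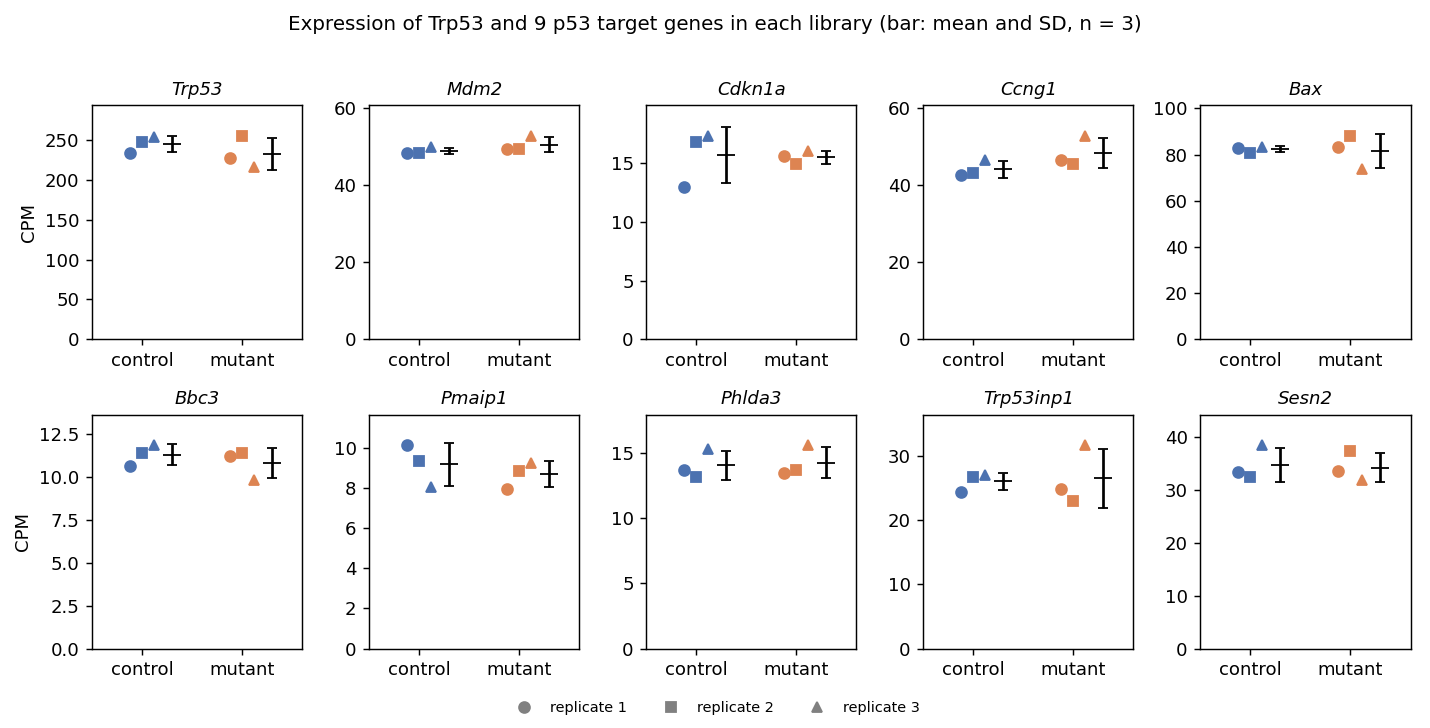
Expression of Trp53 and 9 p53 targets in counts per 1000000 counts of the library (CPM) on an axis from 0, with controls in blue, mutants in orange and the replicate number as the symbol. Each bar is the mean and SD of 3 libraries, and in all 10 panels the mutant values overlap those of the controls.

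The start of each gene was examined first, for letters that p53 or AP-2 can bind. RefSeq windows ran from 250 bases before to 50 bases after a start (GRCm38.p6, the build also called mm10). They were used for 8 of the 10 genes, 11 windows in all, and Pmaip1 and Trp53inp1 are named only. Searched were CATGNNNNNNCATG, 1 strict form of the core of a complete p53 element without a gap, and GCCNNNGGC, a common AP-2 consensus. Each reads the same on either strand, and no match of one overlapped a match of the other. The p53 core stood in 1 of the 11 windows, at the upstream start of Cdkn1a, and in 0.712% of all 32851 windows. The AP-2 letters stood in 4 of the 11, for Mdm2 and for all 3 windows of Bbc3, and in 16.6% of all windows. A pair of the Bbc3 windows overlap and share 1 match. The 3 windows that follow are shown because they hold these letters, which are in capitals, and because Cdkn1a, Mdm2 and Bbc3 stand for arrest, feedback and death.
Cdkn1a, upstream start, chr17:29090729-29091028, plus strand, CATGNNNNNNCATG in capitals from base -48: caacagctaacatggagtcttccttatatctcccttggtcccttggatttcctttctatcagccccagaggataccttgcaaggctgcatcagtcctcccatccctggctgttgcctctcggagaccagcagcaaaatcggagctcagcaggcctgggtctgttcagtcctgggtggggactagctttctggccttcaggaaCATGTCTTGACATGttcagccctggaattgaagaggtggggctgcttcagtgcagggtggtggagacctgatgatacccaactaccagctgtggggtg
Mdm2, chr10:117710709-117711008, minus strand, GCCNNNGGC in capitals from base -16: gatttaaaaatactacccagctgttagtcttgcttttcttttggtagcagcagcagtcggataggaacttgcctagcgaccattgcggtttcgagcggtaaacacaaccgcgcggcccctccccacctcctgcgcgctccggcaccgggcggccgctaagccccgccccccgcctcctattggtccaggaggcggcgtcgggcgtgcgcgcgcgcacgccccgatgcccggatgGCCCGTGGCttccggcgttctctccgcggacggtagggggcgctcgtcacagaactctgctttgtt
Bbc3, middle of 3 starts, chr7:16310011-16310310, plus strand, GCCNNNGGC in capitals from bases -98 and -5: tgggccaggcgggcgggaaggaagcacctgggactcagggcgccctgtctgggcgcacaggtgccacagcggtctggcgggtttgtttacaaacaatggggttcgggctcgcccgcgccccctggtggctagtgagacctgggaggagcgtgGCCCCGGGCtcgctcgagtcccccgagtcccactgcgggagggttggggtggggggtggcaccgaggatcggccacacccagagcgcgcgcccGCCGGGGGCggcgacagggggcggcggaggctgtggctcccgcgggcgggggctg
These matches are letters only and were not tested for binding in this tissue. Other forms of either site, and sites outside the windows, were not searched, so a window without a match may still have a site. The genes that hold AP-2 letters in a window, Mdm2 and Bbc3, had log2 fold changes of 0.05 and -0.06.

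Trp53 (ENSMUSG00000059552.13, chromosome 11, 69580359 to 69591873 in mm10) was the most abundant of the set. Its level, in counts per 1000000 counts of the library (CPM), was 234, 247 and 253 among controls (replicates 1 to 3) and 228, 255 and 216 among mutants. The highest and the lowest value both came from mutants, so the control range lay inside that of the mutants. The log2 fold change was -0.07 (SE 0.07, 95% interval -0.22 to 0.08), and edgeR's test gave an adjusted p of 0.909. Trp53 had an unadjusted p of 0.0392 when mutant 2 was left out, but the adjusted p from edgeR was 0.690.

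Mdm2, whose product degrades p53, was the steadiest of the set. Controls 1 to 3 had 48.6, 48.4 and 49.9 CPM, and mutants 1 to 3 had 49.4, 49.5 and 52.8 CPM (ENSMUSG00000020184.15, chromosome 10, 117688875 to 117710758). Only mutant 3 lay above every control, and the highest library was 1.09 times the lowest. The log2 fold change was 0.05 (SE 0.05, interval -0.07 to 0.16).

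Of the arrest genes, Cdkn1a encodes p21, an inhibitor of cyclin-dependent kinases and the best known p53 target. It had 13.0, 16.8 and 17.3 CPM in the controls and 15.6, 14.9 and 16.0 CPM in the mutants (ENSMUSG00000023067.14, chromosome 17, 29090976 to 29100727). Control 1 was the low library, and the 3 mutants lay between it and the other controls. The log2 fold change was -0.02 (SE 0.11, interval -0.27 to 0.23). Without control 1 it was -0.15, and no call followed. A gene model on the opposite strand, AC167363.2, covers 273 of its exon bases, so its counts hold a small uncertainty.

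Ccng1, which encodes cyclin G1, a partner of the phosphatase PP2A in the control of MDM2, had the largest log2 fold change of the set with all libraries in the fit. The controls had 42.6, 43.1 and 46.5 CPM and the mutants 46.6, 45.4 and 52.7 CPM (ENSMUSG00000020326.7, chromosome 11, 40748552 to 40755311). Mutant 2 lay below control 3, and mutant 3 was the highest library. The log2 fold change was 0.13 (SE 0.07, interval -0.03 to 0.29) with an unadjusted p of 0.0967 and an adjusted p of 0.770 in edgeR's test. Without mutant 3 it was 0.06, smaller in size than Pmaip1 (-0.13) and Trp53inp1 (-0.12) in the same fit. Over 14 alternative fits its lowest adjusted p was 0.352, with the replicate number as a block, where the log2 fold change was 0.13 (SE 0.04) and edgeR's unadjusted p 0.0255.

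The effectors of the mitochondrial death pathway, Bax, Bbc3 and Pmaip1, all had log2 fold changes slightly below 0, with intervals that included 0. Bax encodes a pore-forming protein of the mitochondrial outer membrane, and it had 82.7, 80.8 and 83.3 CPM in the controls against 83.2, 88.1 and 73.8 CPM in mutants (ENSMUSG00000003873.11, chromosome 7, 45461697 to 45466898). Mutants 2 and 3 were the high and the low library, with the controls close together between them (log2 fold change -0.01, SE 0.07, interval -0.16 to 0.14). A model on the same strand, Gm45808, shares 192 of the Bax exon bases, so reads there may be split between them.

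Bbc3 and Pmaip1 encode PUMA and NOXA, BH3-only proteins that neutralise the BCL2 family guardians. Bbc3 had 10.6, 11.4 and 11.8 CPM in the controls and 11.2, 11.4 and 9.82 CPM in the mutants (ENSMUSG00000002083.13, chromosome 7, 16308393 to 16318205). Mutant 3 alone fell below the control range, and the log2 fold change was -0.06 (SE 0.09, interval -0.27 to 0.15). Pmaip1 (ENSMUSG00000024521.8) had 10.1, 9.33 and 8.05 CPM in the controls and 7.97, 8.82 and 9.25 CPM in the mutants. It had the lowest counts of the set, down to 555 in a library, and the widest reach below 0, with a log2 fold change of -0.08 (SE 0.11, interval -0.33 to 0.18).

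Phlda3 encodes a small PH-domain protein that holds back AKT at the membrane, and Trp53inp1 encodes a stress-induced nuclear protein linked to p53 phosphorylation and autophagy. Phlda3 had 13.7, 13.2 and 15.3 CPM in controls and 13.4, 13.7 and 15.6 CPM in mutants (ENSMUSG00000041801.5, chromosome 1, 135766119 to 135769136, log2 fold change 0.02, SE 0.09, interval -0.19 to 0.23). In each group the library numbered 3 was the highest. Trp53inp1 had 24.4, 26.7 and 26.9 CPM in controls and 24.8, 23.0 and 31.6 CPM in mutants (ENSMUSG00000028211.11, chromosome 4, 11156431 to 11174379, log2 fold change 0.03, SE 0.11, interval -0.24 to 0.29). Mutants held its highest and its lowest library, and its highest value was 1.38 times the lowest, the widest range of the set.

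Sesn2 encodes sestrin 2, a leucine sensor that restrains mTORC1 under stress. The controls had 33.4, 32.6 and 38.5 CPM and the mutants 33.6, 37.4 and 31.9 CPM (ENSMUSG00000028893.8, chromosome 4, 132492032 to 132510501). Control 3 and mutant 2 were the high libraries, and the log2 fold change was -0.02 (SE 0.09, interval -0.22 to 0.17).

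**Figure D2:**
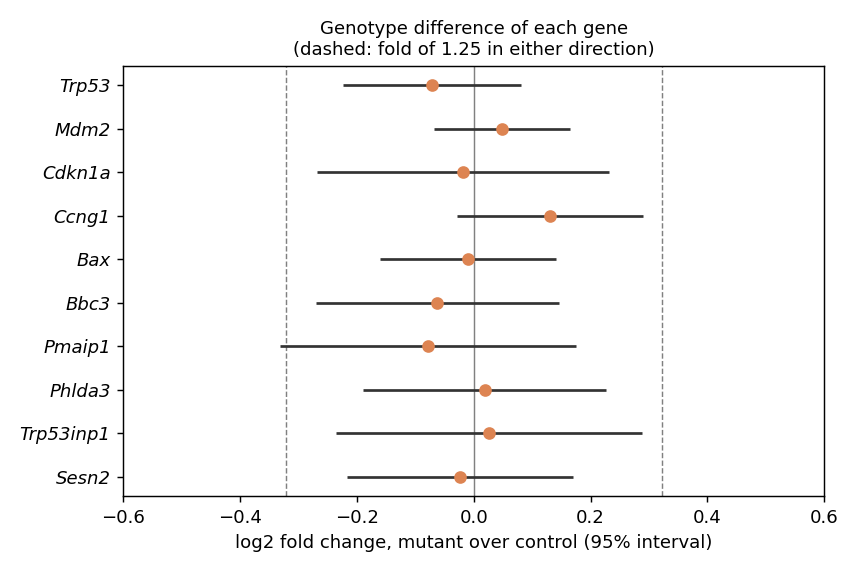
Log2 fold change of each gene, mutant over control, as a point with its 95% interval from edgeR's fit, with dashed lines at the fold that a call needed, 0.32 in either direction. Every interval includes 0, and only the lower end of Pmaip1, at -0.33, passes a dashed line.

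The levels of the 10 genes were ordered by CPM per kilobase of annotated exon, averaged over the 6 libraries. Trp53 (59.1) and Bax (52.0) led, and their ranges over libraries overlapped. Ccng1 followed at 13.1, apart from its neighbours on either side. Sesn2 (9.94), Mdm2 (9.79) and Phlda3 (9.07) did not separate in this order, and lay above Bbc3 (5.20). Bbc3, Cdkn1a (4.39), Trp53inp1 (4.05) and Pmaip1 (3.27) each overlapped the next in the order. The exon length sums all annotated transcripts, so the level is a lower estimate for genes with long rare exons.

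The spread among embryos was also small. The SD of log2 CPM within groups ran from 0.04 for Mdm2 to 0.18 for Trp53inp1, and 7 of the 10 genes were below 0.13, the median over all genes tested. That median covers genes of every level, low counts included, and was not matched to the levels of these 10. Mutant 3 was the highest library for 4 of the 9 targets (Mdm2, Ccng1, Phlda3 and Trp53inp1) and the lowest for 3 (Bax, Bbc3 and Sesn2). Control 3 was the highest for another 3 (Cdkn1a, Bbc3 and Sesn2), control 1 for Pmaip1 and mutant 2 for Bax. The mean over the 9 targets of the centred log2 CPM stayed between -0.05 in control 1 and 0.05 in control 3. Control 3 lay above the gene's mean for 8 of the 9 targets and control 1 for 2 of the 9, while the deviations of mutant 3 pointed both ways.

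**Figure D3:**
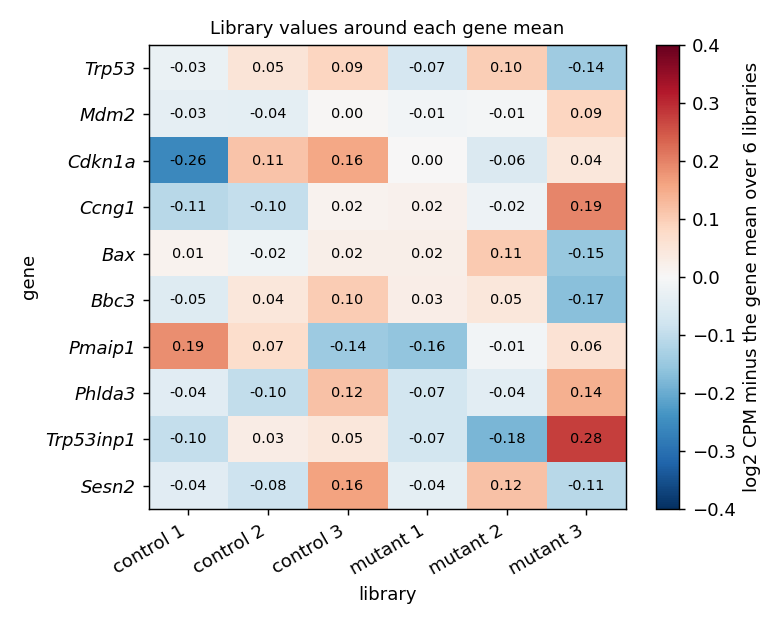
Log2 CPM of each gene in each library minus the gene's mean over 6 libraries, from blue (lower) to red (higher), with the value in each cell. Mutant 3 has red cells for Trp53inp1 (0.28) and Ccng1 (0.19) and blue cells for Bbc3 (-0.17) and Bax (-0.15), and control 1 is low for Cdkn1a (-0.26).

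The genes nearest in pattern were found by the root mean square difference of centred log2 CPM over the 6 libraries. For Trp53 they were Dcakd (0.0136), Acd (0.0146) and Gm12537 (0.0168), and the nearest of the set was Bbc3 (0.0460). For Cdkn1a they were Fam160a1 (0.0383), Gm1848 (0.0449) and Naglu (0.0486), and the nearest of the set was Mdm2 (0.130). With 6 libraries and flat profiles such likeness is a description only.

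None of the other known targets of p53 passed either. Of 34 such genes 33 were tested, and in edgeR's test 0 rose, 0 fell and 33 did not pass, beside 0.326% of all genes called. With so small a share, 0 calls do not set this list apart from other genes. The log2 fold changes ran from -0.43 to 0.29 with a median of 0.01, beside 0.00 over all genes. Unadjusted p was below 0.05 for 1 with a higher and 1 with a lower value, beside 7.95% of all genes. DESeq2 called 0, beside 1.44% of all genes. The groups did not overlap in 2 of the 33 (6.06%), beside 13.4% of all genes. Ak1, an adenylate kinase, had 11.2, 12.1 and 10.6 CPM in the controls against 13.3, 14.8 and 13.3 CPM in mutants (log2 fold change 0.29 ± 0.09 SE, edgeR adjusted p = 0.327). Pidd1, the scaffold that activates caspase 2, stood at 32.7, 33.6 and 39.4 CPM in controls and at 31.1, 30.1 and 31.1 CPM in mutants (-0.20 ± 0.08 SE, edgeR adjusted p = 0.552). These were the genes whose groups did not overlap, with every mutant higher for Ak1 and every mutant lower for Pidd1. The ribosomal protein gene Rps27l (0.10) and Ei24, the most abundant of the list (0.02), had log2 fold changes near 0. Gdf15, often used as a marker of p53 and stress responses, had 4 counts in control 3 and 0 in the other 5 libraries, where 3 counts stand for 0.0387 to 0.0440 CPM, and it was not tested.

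Genes that sense damage or control p53 did not pass either. In the list of 20 regulators 19 were tested, and 0 rose and 0 fell in edgeR's test, beside 0.326% of all genes called. An unadjusted p below 0.05 was found for 0, beside 7.95% of all genes. DESeq2 called 0, beside 1.44%, and the median was -0.01. The ubiquitin ligase gene Rchy1 (log2 fold change 0.11), the deubiquitinase gene Usp7 (0.05) and the kinase gene Hipk2 (-0.08) had the smallest p of the list, with adjusted p of 0.781 to 0.901 in edgeR's test, and Usp7 was the 1 of 19 whose groups did not overlap (5.26%, beside 13.4% of all genes), with every mutant higher. Rpl5, whose ribosomal protein binds MDM2 when ribosome assembly fails, was the most abundant, at 1135, 1137 and 988 CPM in controls and 1157, 1137 and 1047 CPM in mutants (0.04, SE 0.07). Cdkn2a, the source of the MDM2 inhibitor ARF, had 5 counts in mutant 1 and 0 elsewhere, and was not tested. The paralog Trp63, a factor of surface ectoderm, stood at 36.6, 31.8 and 34.9 CPM among controls and at 36.8, 32.2 and 32.8 CPM among mutants. Trp73, a paralog active in neural tissue, was low, with 2.54, 2.42 and 2.02 CPM in controls and 2.77, 4.13 and 3.64 CPM in mutants (0.59 ± 0.18 SE, edgeR adjusted p = 0.326). Every mutant lay above every control for Trp73, but it did not pass the test.

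Among 30 genes of the apoptosis machinery 0 rose and 0 fell in edgeR's test, beside 0.326% of all genes called, and the median was 0.00. An unadjusted p below 0.05 was found for 1 with a higher and 1 with a lower value, beside 7.95% of all genes. The groups did not overlap in 4 (13.3%, beside 13.4% of all genes). Casp8, the initiator caspase of death receptors, had 10.4, 11.6 and 10.53 CPM in the controls against 13.9, 13.6 and 13.7 CPM in mutants, every mutant above every control. For Casp8 edgeR gave 0.34 on the log2 scale (SE 0.08) and an adjusted p of 0.166. DESeq2 called it at an adjusted p of 0.0304, and no other gene of the list, beside 1.44% of all genes called by DESeq2. Over the 14 alternatives the adjusted p of Casp8 ran from 0.0304 to 0.976. It was 0.22 on the log2 scale in the Y-expressing libraries alone, where control 2, the control with the most Casp8, was the 1 control.

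Bmf, which encodes a BH3-only protein tied to the cytoskeleton, had 69.7, 69.1 and 67.6 CPM in the controls against 55.9, 56.8 and 61.9 CPM in mutants, every mutant below every control. For Bmf edgeR gave -0.24 on the log2 scale (SE 0.05, adjusted p = 0.150). The adjusted p ran from 0.00945 with DESeq2 to 0.616 over the 14 alternatives, and the log2 fold change, from -0.29 to -0.21, never reached the 0.32 that a call needed. The mitochondrial nuclease gene Endog had a log2 difference of -0.22 with an edgeR adjusted p of 0.741, and Mcl1, the most abundant of the list and a guardian that NOXA binds, one of 0.07.

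Of 26 genes of the cell cycle machinery on which arrest acts, 25 were tested. In edgeR's test 0 rose and 0 fell, beside 0.326% of all genes called. DESeq2 called 0, beside 1.44%, and the median was 0.02. Unadjusted p was below 0.05 for 1, beside 7.95% of all genes. The groups did not overlap in 1 (4.0%, beside 13.4% of all genes), with every mutant lower. The gene with the smallest p, and the only 1 with an unadjusted p below 0.05, was Cdkn1c, an imprinted kinase inhibitor related to p21, at 214, 264 and 234 CPM in controls and 263, 277 and 279 CPM in mutants (log2 fold change 0.20 ± 0.07 SE, edgeR adjusted p = 0.502). Control 2 lay within the mutant range. Cdk6 (0.12) and Ccnd2 (0.10) came next, and Cdk4, the most abundant, had a log2 difference of 0.02. Cdkn2b, with 0 to 17 counts a library, was not tested.

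**Figure D4:**
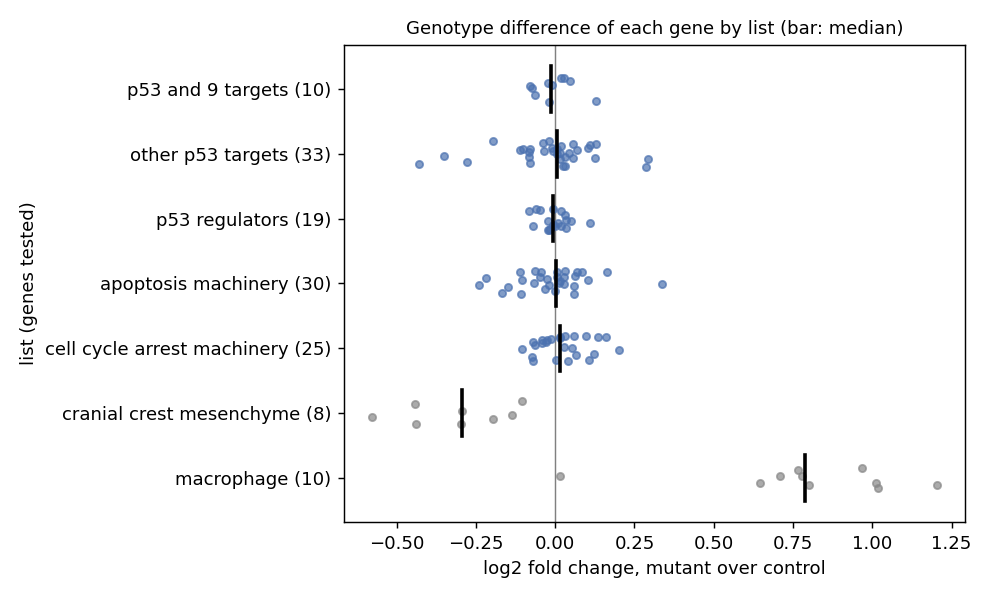
Log2 fold change of each tested gene, mutant over control, by list, with the median as a black bar and the number of genes tested in parentheses. The medians of p53 and its targets and of the 4 wider lists lie between -0.01 and 0.02, while those of 8 crest mesenchyme markers and 10 macrophage markers (grey) are -0.29 and 0.79.

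The libraries held 68119668 to 77555252 counts, and across all genes 64 were called, 21 higher and 43 lower. The targeted genes did not pass, with 30.4 to 35.1 CPM of Tfap2a in controls and 28.6 to 31.5 CPM in mutants, and 88.7 to 97.3 against 75.6 to 84.2 CPM of Tfap2b. Gene counts pool every exon and every cell type, and the deletion itself was not measured. All 8 crest mesenchyme markers were detected, Prrx1 among them, with lower fitted values in mutants. Their summed levels were 873 to 894 CPM in controls and 716 to 752 CPM in mutants. For them edgeR called 0 of 8, DESeq2 called 3, and the groups did not overlap in 6. All 10 macrophage markers had higher fitted values in mutants. Here edgeR called C1qb alone, DESeq2 called 6, and the groups did not overlap in 7. The macrophage sum was 30.3 to 41.0 CPM in controls and 51.3 to 75.0 CPM in mutants. Over all genes edgeR called 0.326%, DESeq2 called 1.44%, and the groups did not overlap in 13.4%. The summed levels of neuronal markers were 405 to 567 CPM in controls and 338 to 459 CPM in mutants. Sums without overlap were also higher in mutants for endothelium (269 to 279 against 294 to 318 CPM), neuroepithelium (382 to 411 against 412 to 445 CPM) and surface ectoderm (314 to 335 against 339 to 406 CPM), with 0 markers called by either tool. The surface ectoderm markers went both ways, 7 higher and 3 lower (Krt5 at -0.33, Krt14 at -0.07 and Grhl3 at -0.01 on the log2 scale). Among these 10 the groups did not overlap in 1. The part of these shifts in cell makeup in the values of p53 targets was not tested. Control 2 and all mutants expressed Y-linked genes and controls 1 and 3 did not. With a covariate for this, or in the Y-expressing libraries alone, the genotype difference rests on control 2 as the 1 control. Such fits called 0 of the 10 genes, but with a single embryo in that arm this says little about stability.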

How the data were processed

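Bulk RNA-seq libraries (poly(A) kit that keeps strand, 150-base single-end reads) were made from 3 control and 3 mutant embryos, with group and replicate taken from the sample titles. The authors mapped reads to mm10 with STAR, quantified genes with StringTie and made the deposited table of estimated counts with prepDE, which derives reads from coverage. The values were already whole. The sources used here give neither versions nor the annotation release. The columns of the authors' own DESeq2 comparison in this table, and the second deposited table, which holds their kallisto and sleuth comparison without values per library, were not used. Gene positions came from GENCODE M21 (mm10), where 54349 of 55401 identifiers matched with their version, all 10 genes studied among them, and promoters from RefSeq.

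In R 4.3.3, edgeR 4.0.16 was run with filterByExpr by genotype (19612 genes kept), TMM scaling (0.992 to 1.01), no covariate and the quasi-likelihood F test with robust dispersions, with Benjamini-Hochberg adjustment over all genes tested. The limits for a call were 0.05 for the adjusted p and 1.25 for the fold (0.32 as log2), as the study set for this table. The study also required a q limit in its second table, which was not applied here. The SE is the absolute log2 fold change over the square root of F, and the 95% interval takes it with the t quantile of the fit. CPM are counts per 1000000 of TMM-adjusted library size. The scripts were tested on simulated data. Alternatives were DESeq2 1.42.0 on the same genes, DESeq2 size factors, no filter, a stricter filter (1 CPM in 3 libraries), counts divided by 2, the replicate number as a block, a Y-linked covariate, the Y-expressing libraries alone and each library left out. No pair of libraries looked like 1 library deposited more than once (chi-square of 17.3 to 36.0 per gene).

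The genes and lists were chosen with earlier results of these data known. Named are the 10 genes, the targeted genes, Trp63 and Trp73, and in each of 4 wider lists every called gene, the 3 with the smallest p and the most abundant, with the 3 nearest patterns of Trp53 and Cdkn1a. Genes at low counts and markers were named beyond this rule, after their values were seen. Limits from counts cover counting error only.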

Additional observations from a re-analysis of the deposited data

How the results depend on the processing

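The count of 0 called among the 10 genes was the same in all 14 alternatives, and the 140 log2 fold changes they gave ran from -0.17 to 0.17, with 18 changes of sign in 6 genes. The counts for the lists of regulators, cell cycle machinery and paralogs also stayed at 0. Of the other p53 targets 1 was called with the Y-linked covariate, Ddit4, a stress-induced mTORC1 inhibitor named after its values were seen (-0.63 ± 0.09 SE on the log2 scale, edgeR adjusted p = 0.0377, with control 2 as the 1 control that expresses Y-linked genes). In the main comparison edgeR gave -0.28 (SE 0.16, adjusted p = 0.805), with 68.7 CPM in control 2 against 41.6 to 47.5 CPM in the other 5 libraries. Of the apoptosis machinery 1 was called by DESeq2, Casp8 (0.34 on the log2 scale). Across all genes the 64 calls became 282 with DESeq2, 119 with the replicate block, 39 with the Y-linked covariate, 33 in the Y-expressing libraries alone and 23 to 63 with 1 library left out. Leaving out control 1 gave 41, control 3 gave 25, mutant 2 gave 23 and mutant 3 gave 26. The cause of these shifts was not tested.

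Deviations from the group means correlated at 0.03, 0.11 and 0.13 between same-numbered libraries. Each library correlated best with its own number, a hint from the data. The deposited columns are lettered a to f, with control and mutant of the same number side by side. The labels do not say that a number marks a litter, so the samples were treated as unpaired. The replicate block called 0 of the 10 genes. With 3 embryos a group, each gene's own 95% interval gives the changes that the data leave possible for it, and these differ between genes, from 0.954-fold to 1.12-fold for Mdm2 and from 0.794-fold to 1.13-fold for Pmaip1.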
